A study of Homo sapiens with 9 samples.

Results

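Binding sites of p65 and TEAD on the short arm of chromosome 3 (3p) were examined in the 786-O cell line, which was established from a human clear cell renal carcinoma. Chromatin immunoprecipitation sequencing gave 5 lists of peaks, 1 from each of 5 immunoprecipitates, and no list of the 4 input libraries was analysed here. The p65 lists came from control cells, cells labelled siTEAD4, vehicle-treated cells and cells treated with XMU-MP-1, and the TEAD list came from XMU-MP-1 cells. Each condition was sequenced as 1 library, so there is no replicate error and no p-value is given. The peak identifiers of the siTEAD4 list carry the name p65_Vert, which is in no label, and that list is therefore called "labelled siTEAD4" throughout. Its treatment label reads siTEAD, and the title of the same sample reads siTEAD4. The labels give neither the dose or duration of XMU-MP-1 nor the TEAD protein that the antibody recognises.

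A peak was assigned to 3p when its summit lay between positions 1 and 90500000 of chromosome 3 in genome build hg19, whatever its strength. By this rule 1775 of the 60345 peaks in the 5 lists lay on 3p. They were 448 of 15465 control p65 peaks, 58 of 1813 p65 peaks labelled siTEAD4, 522 of 17958 vehicle p65 peaks, 53 of 1649 XMU-MP-1 p65 peaks and 694 of 23460 TEAD peaks. The long arm, 3q, was taken from position 93500000 to the end of the last peak at 197944973 and held 2164 peaks. No peak of any list had its summit between the arms. The last peak on the 3p side was a TEAD peak at chr3:90234047-90234340 (fold enrichment 9.61), and the first on the 3q side was a TEAD peak at chr3:93562814-93563271 (fold 19.3).

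Loss of 3p is the characteristic chromosomal lesion of clear cell renal carcinoma. The arm carries VHL, the ubiquitin ligase subunit that marks hypoxia-inducible factors for destruction, and the chromatin genes PBRM1, BAP1 and SETD2. The 786-O line lacks functional VHL. p65, or RELA, is a subunit of NF-κB that carries a transactivation domain and enters the nucleus when inhibitory IκB proteins are degraded. TEAD proteins bind DNA and recruit the co-activators YAP and TAZ, which the Hippo kinases MST1 and MST2 hold out of the nucleus. XMU-MP-1 inhibits those kinases. The question put to 3p was whether p65 and TEAD sites were as dense there as on 3q, and whether its p65 sites were as often retained after treatment and as often shared with TEAD. Copy number was not measured in the series. Genes, exons and sequence at the sites are not given, because no genome or annotation of build hg19 was used here.

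The arm carried p65 sites at the same density as 3q. In the control list there were 4.95 peaks per Mb on 3p (95% exact Poisson interval 4.50 to 5.43) and 4.96 on 3q (4.54 to 5.41), a ratio of 0.998 (0.878 to 1.13). The vehicle list had 5.77 peaks per Mb on 3p and 5.97 on 3q, a ratio of 0.965 (0.858 to 1.09). The short lists gave 0.641 per Mb on 3p for p65 labelled siTEAD4 (ratio to 3q 1.08, interval 0.742 to 1.57) and 0.586 for XMU-MP-1 p65 (ratio 0.941, interval 0.642 to 1.37). None of the 4 p65 intervals excludes equal density, but those of the short lists also include ratios from 0.742 to 1.37. All intervals on peaks here and below reflect counting alone and take each peak as independent of the next, which neighbouring peaks are not.

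TEAD peaks were less dense on 3p, at 7.67 per Mb (7.11 to 8.26), than on 3q, at 8.57 per Mb (8.02 to 9.15), a ratio of 0.895 (0.809 to 0.989). Peaks of all lists were sparse in the stretch of 3p next to the centromere, from 75 Mb to the bound. Without that stretch the TEAD ratio was 1.05 (0.946 to 1.16) and the control and vehicle ratios were 1.15 (1.01 to 1.31) and 1.12 (0.996 to 1.26). The stretch was picked for its low counts after the peaks per 5 Mb had been seen, and nothing was taken from 3q, whose own sparse bins stayed in, so these ratios had to rise and are a description only. Leaving out only the 5 Mb next to the centromere, or joining TEAD peaks within 10 kb into regions, gave TEAD ratios of 0.907 and 0.900 whose intervals include 1.

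Densities on 3p lay within the range of the other autosomes. Over all chromosomes the p65 densities were 5.00 per Mb for control, 0.586 labelled siTEAD4, 5.81 for vehicle and 0.533 for XMU-MP-1, and the TEAD density was 7.59. The TEAD interval of 3p includes that genome-wide value, and the interval of 3q lies above it. Of the 21 other autosomes, 6 had fewer control peaks per Mb than 3p and 8 had fewer TEAD peaks per Mb. Their control densities ran from 1.44 per Mb on chromosome 13 to 8.60 on chromosome 19. Peaks of 3p were as long as those of 3q in the large lists, with median lengths of 289 and 296 bp in the control list and 347.5 and 353 bp in the TEAD list. The fold enrichment that the authors' peak caller gives for each summit over local background had medians of 6.26 on 3p and 5.89 on 3q in the control list, 6.01 and 5.75 in the vehicle list and 6.22 and 6.31 in the TEAD list. Medians in the short lists were 6.05 on 3p and 5.33 on 3q for p65 labelled siTEAD4, and 6.95 and 5.52 for XMU-MP-1 p65.

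**Figure D1:**
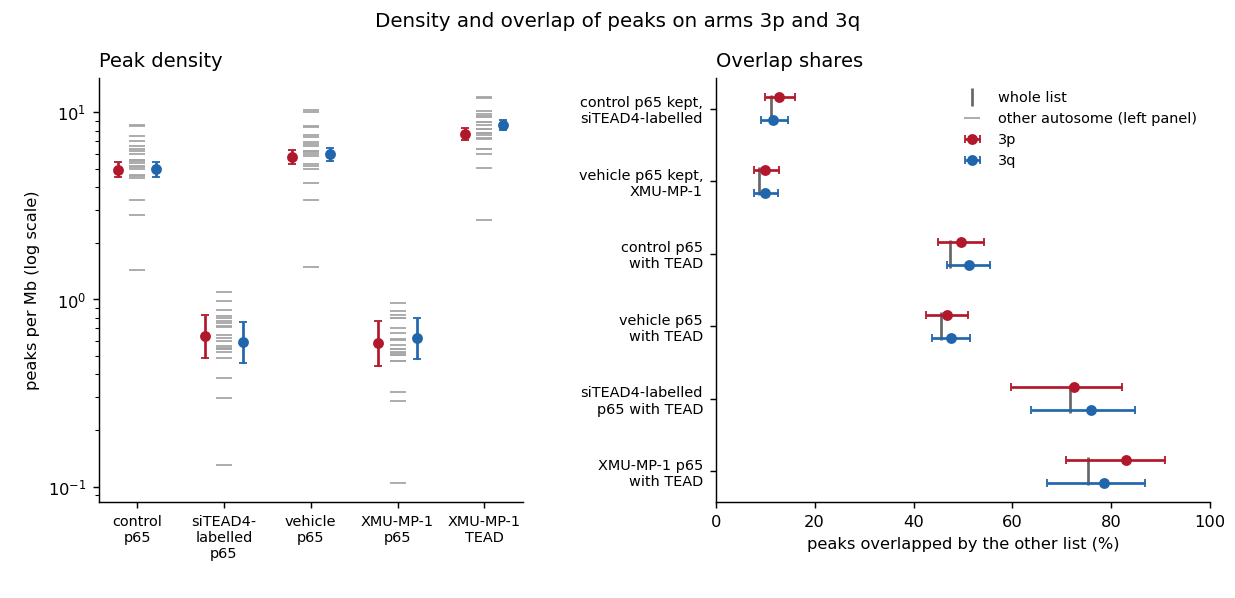
Left, peaks per Mb (log axis) in the 5 lists for 3p (red) and 3q (blue) with 95% exact Poisson intervals, and for each of the 21 other autosomes (grey dashes). Right, percentage of the named peaks that overlap a peak of the other list by at least 1 bp, with 95% Wilson intervals, and the share in the whole list (grey bars). The 3p and 3q points lie within each other's intervals in every pair except the TEAD densities, 7.67 and 8.57 per Mb.

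Peaks were unevenly spread along 3p. Among the 18 full bins of 5 Mb, the one from 10 to 15 Mb held the most control peaks (55) and the most vehicle peaks (64), and it held 67 TEAD peaks. The TEAD list peaked in the bin from 45 to 50 Mb with 80 peaks, where 46 control and 52 vehicle peaks were called. The median bin held 23 control, 30.5 vehicle and 39.5 TEAD peaks. The bin at the end of the arm, from 0 to 5 Mb, was below the median, with 10 control, 12 vehicle and 15 TEAD peaks. The first control peak lay at chr3:4458735-4458944, the first vehicle peak at chr3:1232740-1232922 and the first TEAD peak at chr3:1129054-1129314. In the list labelled siTEAD4 the fullest bin was that from 20 to 25 Mb, with 8 peaks at a place where the control list had 36.

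The stretch from 75 Mb to the centromeric bound, 15.5 Mb long, held 20 control, 1 siTEAD4-labelled, 19 vehicle, 2 XMU-MP-1 p65 and 21 TEAD peaks. This is 1.29 control peaks per Mb against 5.71 in the rest of the arm, 1.23 against 6.71 for vehicle and 1.35 against 8.97 for TEAD. These values are a description, since the stretch was chosen for its low counts. Its control peaks had a median fold of 7.54, against 6.20 in the rest of the arm, but a lower median summit pileup. That pileup was 17.3 against 19.9, in scaled units, since solved pileups of the control list came in steps of 0.587. The other large lists had no higher fold there, with medians of 5.93 against 6.01 for vehicle and 6.08 against 6.23 for TEAD. In the stretch, 2 p65 sites were called after treatment. The site at chr3:79416224-79416682 was called in all 5 lists, with folds of 16.8 in control, 10.6 in siTEAD4-labelled, 15.4 in vehicle and 7.30 in XMU-MP-1 p65 and 7.94 in TEAD. The site at chr3:87382354-87382883 had folds of 15.5 in control, 10.0 in vehicle and 4.94 in XMU-MP-1 p65 and 8.73 in TEAD, with no peak in the list labelled siTEAD4. TEAD peaks lay at 6 of the 20 control and 8 of the 19 vehicle peaks of the stretch, against 50.5% of control and 46.9% of vehicle peaks in the rest of the arm. These shares are a description too, since the stretch was chosen for low counts, which TEAD peaks also had there.

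**Figure D2:**
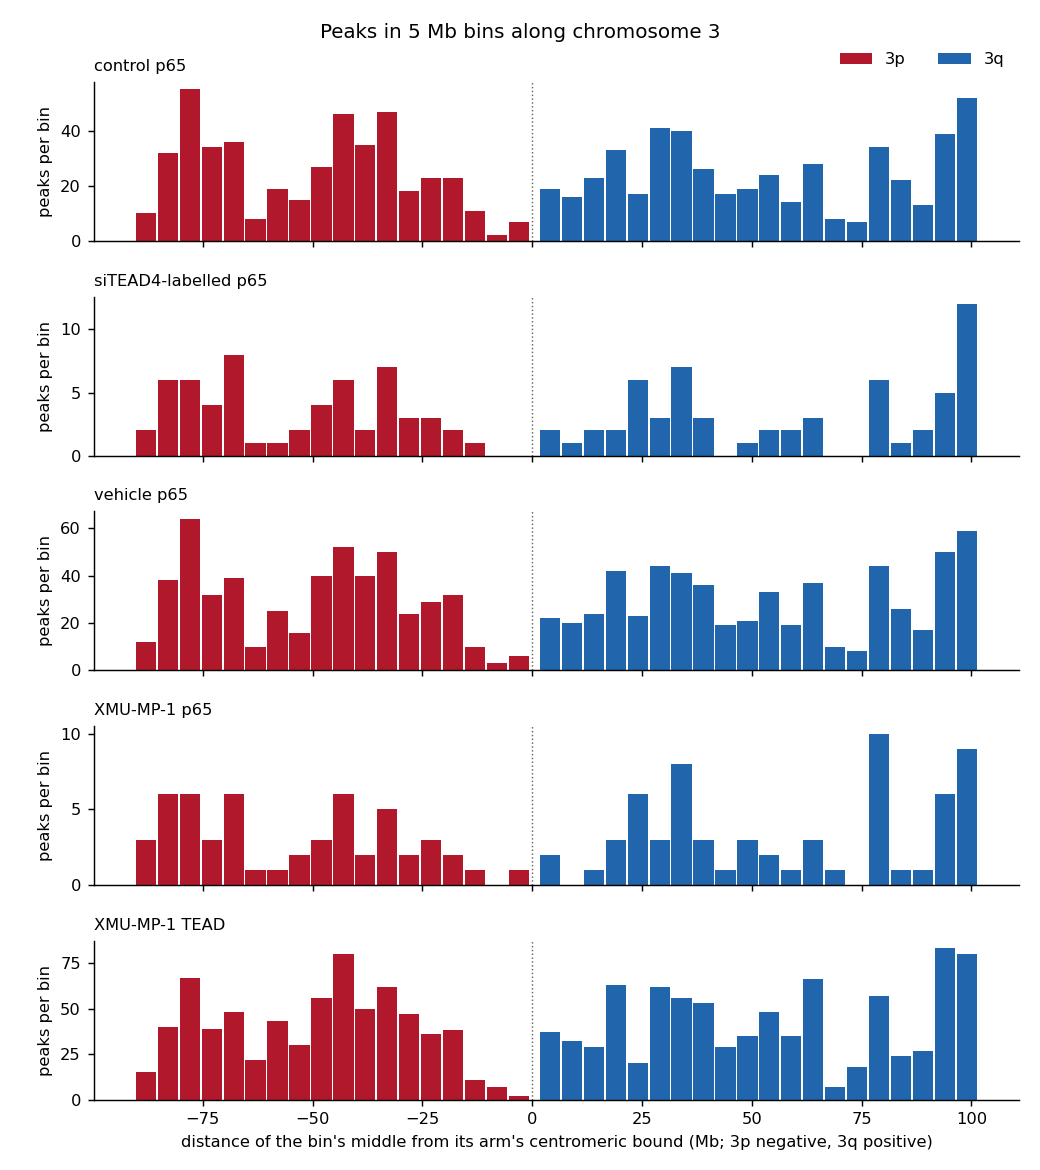
Number of peaks in each full 5 Mb bin of chromosome 3, by the distance of the bin's middle from its arm's centromeric bound in Mb (3p negative and red, 3q positive and blue), 1 panel per list with its own vertical scale. The 3 bins of 3p nearest the bound are low in every list, with at most 11 peaks each, while the highest 3p bins reach 55 control, 64 vehicle and 80 TEAD peaks.

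The background under the peaks was also alike on both arms. For each peak, the local background that its fold and p-value imply was solved and divided by the lowest level of its list (the 1st percentile, called the floor). The caller does not let this background fall below a genome-wide value, so the ratio is about 1 or more. The median was 1.77 on 3p and 1.78 on 3q in the control list, a ratio of 0.996. The 3p to 3q ratios of the other lists were 0.993 for p65 labelled siTEAD4, 0.951 for vehicle p65, 1.07 for XMU-MP-1 p65 and 0.979 for TEAD. The median summit pileup, the solved height of stacked fragments, had 3p to 3q ratios of 0.944, 1.11, 1.06, 1.12 and 0.947 in the same order of lists. Solved pileups came in steps of 0.587 for control and 0.783 for XMU-MP-1 p65, and of 1 in the other lists.

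The same measure differed widely between chromosomes. In the control list its median was 1.00 on chromosome 13, 2.21 on chromosome 7 and 2.35 on chromosome 8, with 1.77 on chromosome 3. Chromosome 8 had the highest median in all 5 lists. The stretch of 3p next to the centromere was low here too, with a control median of 1.04 against 1.77 in the rest of the arm, and 10 of its 20 control peaks against 21 of the other 428 at the floor. In the vehicle list its median was 1.28 against 1.71. Which library served as the background of which list is not given in the sources used here, and what part copy number, mappability or chromatin has in these levels was not tested.

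**Figure D3:**
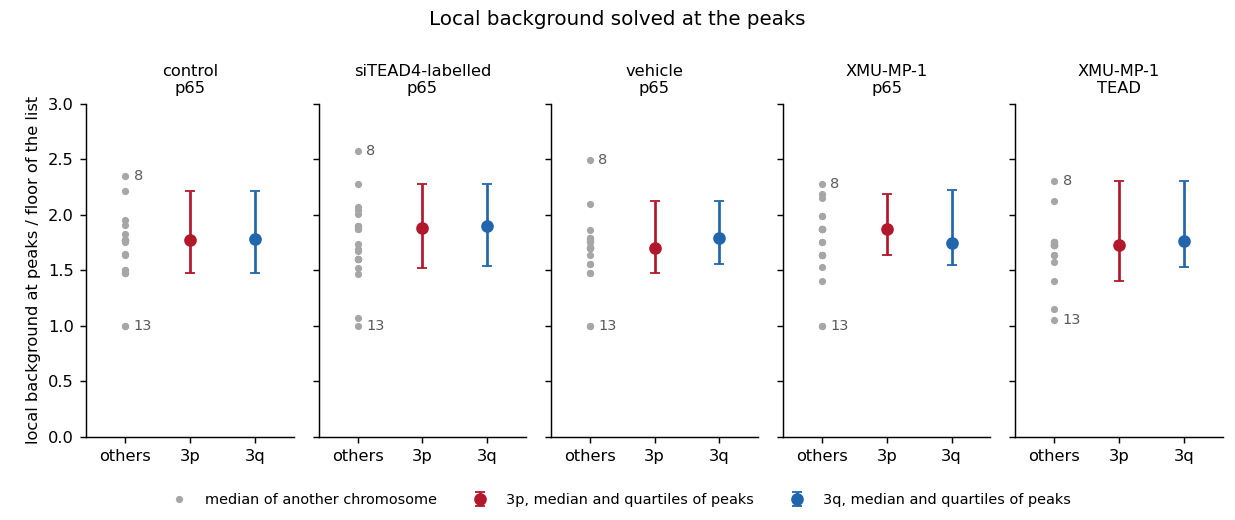
Local background at the peaks divided by the floor of the list, 1 panel per list. Grey points are medians of the chromosomes other than 3 (Y left out, 13 and 8 marked), and red and blue points are medians of 3p and 3q with quartiles over peaks. The arms are close to each other in each panel, at 1.77 and 1.78 in the control list, between chromosome 13 at 1.00 and chromosome 8 at 2.35.

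Untreated p65 sites recurred between the control and vehicle lists on 3p. Of the 448 control peaks, 360 (80.4%, 95% Wilson interval 76.4 to 83.8) overlapped a vehicle peak by at least 1 bp, against 410 of 518 (79.2%) on 3q and 79.5% of the whole list. The difference between the arms was 1.21 percentage points (Newcombe interval -3.91 to 6.25). In the other direction 362 of 522 vehicle peaks (69.3%) overlapped a control peak. Summits of overlapping control and vehicle peaks on 3p lay a median of 31 bp apart.

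Most p65 sites of 3p had no peak in the treated lists. A reference peak was counted as kept when a peak of the treated list overlapped it by at least 1 bp. In the list labelled siTEAD4, 57 of the 448 control peaks on 3p were kept (12.7%, 9.95 to 16.1). On 3q 60 of 518 were kept (11.6%, 9.11 to 14.6), and in the whole list 11.2%. The arms differed by 1.14 points (-2.98 to 5.35), and by 0.145 points (-3.40 to 3.69) when compared within 10 equal-sized classes of fold enrichment. In the XMU-MP-1 p65 list, 52 of 522 vehicle peaks on 3p were kept (9.96%, 7.68 to 12.8), against 62 of 624 on 3q (9.94%, 7.83 to 12.5) and 8.77% of the whole list. That difference was 0.0258 points (-3.43 to 3.59), and -0.999 points (-4.19 to 2.19) within the 10 classes of fold. By counting alone, these intervals reach up to 5.35 points in the first comparison and 3.59 in the second. With a −log10 q of at least 10 they reach up to 9.12 and 9.85 points. The treated lists were short throughout the genome, with 1813 and 1649 peaks in all, so a lost peak is one not called in a short list. The floor of the solved background was 1.36 for control, 2.34 labelled siTEAD4, 1.25 for vehicle and 1.83 for XMU-MP-1 p65. These floors are in each list's own pileup units, and no read depth was derived from them. Whether fewer reads or weaker enrichment of the treated libraries had a part in the losses was not tested.

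On 3p, as in the whole lists, nearly all p65 peaks of the treated lists lay at reference peaks. Of the 58 peaks labelled siTEAD4, 57 overlapped a control peak (98.3%, against 60 of 62 on 3q and 96.3% of the whole list). The remaining one, at chr3:5025556-5025843, had a fold of 3.95 beside a TEAD fold of 6.96. Of the 53 XMU-MP-1 p65 peaks, 52 overlapped a vehicle peak (98.1%, against 62 of 65 on 3q and 95.7% of the whole list). The remaining one, at chr3:17443482-17443734, had a fold of 8.11, beside folds of 5.65 in control, 10.1 labelled siTEAD4 and 6.25 for TEAD. Of the 58 peaks labelled siTEAD4 on 3p, 44 (75.9%) overlapped an XMU-MP-1 p65 peak, against 72.6% on 3q and 66.0% of the whole list. Of the 53 XMU-MP-1 peaks, 44 (83.0%, 70.8 to 90.8) overlapped one labelled siTEAD4, against 69.2% on 3q and 72.3% of the whole list. The differences between the arms were 3.28 points (-12.4 to 18.5) and 13.8 points (-1.95 to 28.1).

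Kept p65 sites on 3p were the strong ones. The 57 kept control peaks had a median fold of 14.0 (quartiles 8.46 and 17.3), and the 391 lost ones a median of 5.97 (4.85 and 7.43). The 52 kept vehicle peaks had a median of 14.5, and the 470 lost ones 5.68. Kept peaks were also longer, with medians of 516 against 275 bp in the control list and 524.5 against 273 bp in the vehicle list. When the whole control list was divided by fold into 5 equal classes, the kept 3p peaks numbered 0 of 72 in the lowest class, 1 of 84, 5 of 98, 9 of 106 and 42 of 88 (47.7%, 37.6 to 58.0) in the highest. On 3q the highest class had 46 of 99 kept (46.5%). For vehicle peaks the counts on 3p ran 0 of 102, 1 of 101, 3 of 107, 6 of 94 and 42 of 118 (35.6%, 27.5 to 44.6), with 42 of 111 (37.8%) in the highest class of 3q. In the highest class, which begins at a fold of 9.24 in the control list and 9.16 in the vehicle list, 46 of 88 control and 76 of 118 vehicle peaks of 3p were lost.

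**Figure D4:**
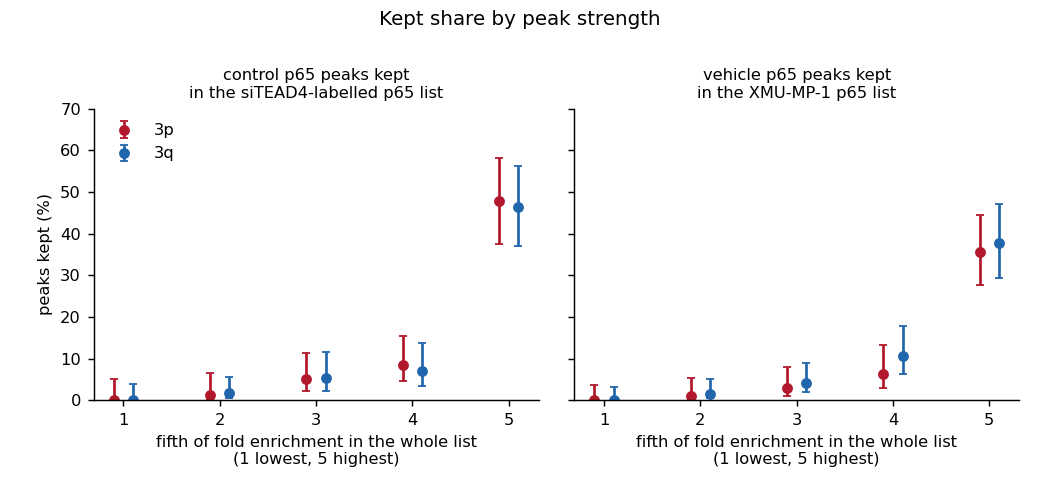
Share of reference p65 peaks kept in the treated list, by class of fold enrichment (5 equal classes of the whole reference list, the lowest at the left), for 3p (red) and 3q (blue) with 95% Wilson intervals. Both arms rise together from 0 in the lowest class to 47.7% and 46.5% of control peaks and 35.6% and 37.8% of vehicle peaks in the highest.

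The 5 strongest control p65 sites of 3p were called in every p65 list. The site at chr3:45245523-45246181 led both reference lists, with folds of 36.3 in control and 40.6 in vehicle, and it had 15.3 in the list labelled siTEAD4, 14.8 with XMU-MP-1 and a TEAD fold of 3.72. The site at chr3:48632593-48633667, over 1 kb long in the control list, had 25.5 in control, 14.2 labelled siTEAD4, 34.4 in vehicle, 23.6 with XMU-MP-1 and 15.0 for TEAD. Its XMU-MP-1 fold was the highest of that list on 3p. At chr3:11427240-11427818 the folds were 29.2 in control, 5.68 labelled siTEAD4, 36.1 in vehicle, 10.2 with XMU-MP-1 and 5.95 for TEAD. A fold is set against the local background used for its list, so it ranks sites within a list and measures no change between lists.

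There were 36 control peaks on 3p that overlapped a peak in each of the other 4 lists. Their control folds ran from 6.07 to 36.3 (median 14.7), their folds labelled siTEAD4 from 3.95 to 15.3 (median 6.48), their vehicle folds from 5.72 to 40.6 (median 14.8), their XMU-MP-1 p65 folds from 3.65 to 23.6 (median 7.40) and their TEAD folds from 3.40 to 21.9 (median 8.63). Some of these sites lay close together. At chr3:10215414-10216109, chr3:10233554-10234195 and chr3:10240706-10241262, control folds were 11.3, 21.1 and 17.3. Their XMU-MP-1 p65 folds were 10.9, 7.07 and 8.13, and their TEAD folds were 8.87, 3.45 and 3.40, so the site with the weakest control signal of the 3 had the strongest signal after XMU-MP-1. A second pair lay at chr3:23201274-23201817 and chr3:23203463-23204003, with control folds of 24.8 and 13.8 and folds labelled siTEAD4 of 7.48 and 8.11.

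The site at chr3:8724605-8725054 had folds of 20.9 in control, 20.2 labelled siTEAD4, 20.2 in vehicle and 17.0 with XMU-MP-1. Within its list it was the strongest 3p peak labelled siTEAD4, and it had no TEAD peak. Together with it, 8 control peaks of 3p were called in all 4 p65 lists without TEAD. Among them, chr3:73022127-73022752 had folds of 29.3 in control, 11.7 labelled siTEAD4, 21.2 in vehicle and 8.92 with XMU-MP-1, and chr3:23093012-23093509 had 23.7, 6.59, 21.8 and 7.49 in that order. The other 5 had control folds from 11.2 to 16.5, folds labelled siTEAD4 from 3.79 to 8.24 and XMU-MP-1 folds from 3.77 to 6.71.

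**Figure D5:**
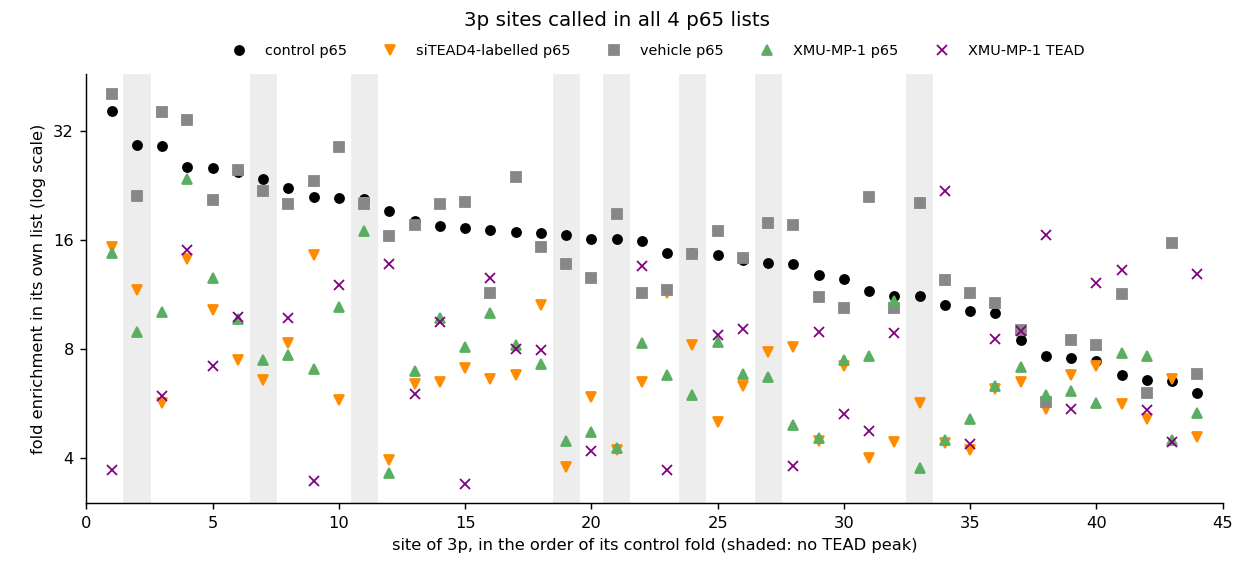
Fold enrichment (log axis) at the 44 sites of 3p called in all 4 p65 lists, in the order of the control fold, with 1 symbol per list; shaded sites are the 8 without a TEAD peak. Folds are set against the local background used for each list, so heights rank sites within a list only. Control folds run from 6.07 to 36.3, and the highest siTEAD4-labelled value, 20.2, is at a site without TEAD.

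Strong p65 sites of 3p were also missing from the treated lists. The strongest control peak not called in the list labelled siTEAD4 was at chr3:52315847-52316493, with folds of 19.6 in control, 17.9 in vehicle and 4.17 with XMU-MP-1. The site at chr3:67436839-67437299 had 18.2 in control and 22.0 in vehicle, and it was called in neither treated list. It was the strongest vehicle peak of 3p lost with XMU-MP-1. The control peaks at chr3:46755459-46755914 (18.1), chr3:50390307-50390719 (17.9) and chr3:61912595-61912983 (17.1) were likewise called in vehicle, with folds of 11.8, 15.3 and 12.4, and in neither treated list. None of these 5 sites had a TEAD peak. Of the vehicle peaks of 3p lost with XMU-MP-1, those ranked 2 and 3 did have one. The peak at chr3:69131972-69132440 had a vehicle fold of 19.7 and a TEAD fold of 5.22, and chr3:16440871-16441381 had 18.2 and 5.71. Those ranked 4 and 5, chr3:52347749-52348154 (17.9) and chr3:55657756-55658701 (17.0), had no TEAD peak. Both were called in the list labelled siTEAD4, with folds of 4.91 and 6.55.

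When overlapping peaks of all lists were merged, 3p held 1016 sites, of which 606 had a p65 peak of any list and 410 (40.4%) had TEAD alone, against 549 of 1277 (43.0%) with TEAD alone on 3q. Merged sites called in all 5 lists numbered 37 on 3p and 34 on 3q. Those called in the 4 p65 lists without TEAD numbered 8 and 10. Of the 358 sites called in both the control and the vehicle list, 45 (12.6%, 9.53 to 16.4) were kept in both treated lists, 10 in the list labelled siTEAD4 only, 7 with XMU-MP-1 only and 296 (82.7%) in neither. On 3q 44 of 407 (10.8%, 8.15 to 14.2) were kept in both and 330 (81.1%) in neither. TEAD peaks lay at 37 of the 45 sites of 3p kept in both (82.2%, 68.7 to 90.7), at 3 of the 10 kept only in the list labelled siTEAD4 (interval 10.8% to 60.3%), at 6 of the 7 kept only with XMU-MP-1 and at 134 of the 296 kept in neither (45.3%, 39.7 to 51.0). On 3q the counts were 34 of 44 (77.3%), 11 of 16 (68.8%, 44.4 to 85.8), 13 of 17 and 157 of 330 (47.6%) in that order, and the difference between the arms at the sites kept only in the list labelled siTEAD4 was not tested. The sites kept only with XMU-MP-1 included chr3:8911292-8911696, with folds of 4.49 in control, 8.28 in vehicle and 4.37 with XMU-MP-1, under a TEAD peak of fold 37.2.

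TEAD peaks lay at p65 peaks of 3p as often as on 3q. They overlapped 222 of 448 control peaks on 3p (49.6%, 44.9 to 54.2) and 265 of 518 on 3q (51.2%), a difference of -1.60 points (-7.89 to 4.70), with 47.4% in the whole list. For vehicle peaks the shares were 244 of 522 (46.7%) and 297 of 624 (47.6%), a difference of -0.853 points (-6.63 to 4.94), with 45.6% in the whole list. The treated lists had larger shares on both arms. Among p65 peaks labelled siTEAD4, 42 of 58 on 3p (72.4%, 59.8 to 82.2) and 47 of 62 on 3q (75.8%) had a TEAD peak, with 71.6% in the whole list. The difference between the arms was -3.39 points (-18.9 to 12.1), or -14.3 (-29.7 to 1.06) within the 10 classes of fold. Among XMU-MP-1 p65 peaks the shares were 44 of 53 (83.0%, 70.8 to 90.8) and 51 of 65 (78.5%), a difference of 4.56 points (-10.2 to 18.4), with 75.2% in the whole list. The 53 and 58 peaks of the treated lists on 3p give wide intervals, and no difference between the arms was detectable at these numbers.

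These shares depended on the TEAD threshold in 1 respect. When both lists were limited to peaks with a −log10 q of at least 10, TEAD peaks lay at 54 of 198 control peaks on 3p (27.3%) and at 80 of 211 on 3q (37.9%), a difference of -10.6 points (-19.5 to -1.54). The whole control list had 30.7%, which is closer to 3p than to 3q. For p65 labelled siTEAD4 it was 14 of 34 (41.2%) against 21 of 32 (65.6%), or -24.4 points (-44.8 to -0.461), with 51.5% in the whole list. For vehicle and XMU-MP-1 p65 peaks with both lists limited, the differences were -8.18 (-16.6 to 0.470) and -12.0 points (-33.7 to 12.0). When only the p65 lists were limited, a setting chosen after those results, the differences were -2.67 points (-12.2 to 6.97) for control, 7.54 (-13.0 to 27.6) labelled siTEAD4, -0.638 (-9.86 to 8.59) for vehicle and 13.2 (-6.07 to 32.9) for XMU-MP-1. All 4 p65 lists were set against the same TEAD list, so these are not separate observations.

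Seen from the TEAD list, 221 of the 694 TEAD peaks on 3p overlapped a control p65 peak (31.8%, 28.5 to 35.4), against 29.4% on 3q and 30.9% in the whole list. A vehicle p65 peak lay at 243 of them (35.0%), against 33.2% on 3q and 34.5% in the whole list. After treatment, 42 of the 694 (6.05%) had a p65 peak labelled siTEAD4 and 44 (6.34%) an XMU-MP-1 p65 peak, against 5.5% and 5.26% in the whole list. The largest of the 4 differences from 3q was 2.46 points (-2.09 to 7.04), for control p65, and all 4 intervals include 0. Summits of the overlapping control and TEAD peaks on 3p lay a median of 52 bp apart, those of XMU-MP-1 p65 and TEAD 58.5 bp, and 21 of the 44 XMU-MP-1 pairs (47.7%) lay within 50 bp.

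On 3p, the p65 sites that coincided with TEAD were kept more often than the others. Of the 222 with TEAD, 42 were kept in the list labelled siTEAD4 (18.9%, 14.3 to 24.6), and of the 226 without, 15 (6.64%, 4.06 to 10.7), a difference of 12.3 points (6.17 to 18.5). Both classes were of like strength, with median folds of 6.11 with TEAD and 6.33 without, and within the 10 classes of fold the difference was 10.5 points (4.73 to 16.3). Of the vehicle peaks, 43 of 244 with TEAD (17.6%, 13.4 to 22.9) and 9 of 278 without (3.24%, 1.71 to 6.04) were kept with XMU-MP-1, a difference of 14.4 points (9.28 to 19.9). The 3q arm had differences of 11.1 and 11.9 points, and 3p exceeded it by 1.23 (-6.99 to 9.48) and 2.51 points (-4.59 to 9.71), so a difference between the arms was not detectable. The TEAD list and the XMU-MP-1 p65 list come from cells under the same treatment, and no TEAD list from untreated cells was analysed here.

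Of the 5 strongest TEAD peaks of 3p, 3 had no p65 peak in any list. The peaks at chr3:29735217-29735898 and chr3:36718699-36719509 each had a TEAD fold of 48.8. The first had no p65 peak in any list, and the second overlapped only a control p65 peak of fold 4.57. The peak at chr3:8911221-8911974 (37.2) overlapped p65 peaks of the control, vehicle and XMU-MP-1 lists, with folds of 4.49, 8.28 and 4.37. The peaks at chr3:58546427-58547000 (44.1) and chr3:76546809-76547226 (35.6) had no p65 peak either, and the latter lies in the sparse stretch next to the centromere. As a group, the 410 sites with TEAD alone were weaker, with a median TEAD fold of 5.83 against 6.99 for the 284 TEAD peaks with a p65 peak of any list. In 5 equal classes of TEAD fold in the whole list, the shares of 3p TEAD peaks with a vehicle p65 peak were 33.3%, 27.0%, 27.7%, 39.0% and 49.2% from lowest to highest, and on 3q 24.1%, 22.3%, 31.4%, 39.1% and 48.3%.

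Joined within 10 kb, the 694 TEAD peaks of 3p formed 477 regions, of which 343 held 1 peak, 126 held 2 to 4 and 8 held 5 or more. So 343 of the 694 peaks stood alone, and the others had a neighbour within 10 kb. The 3 largest had 7 TEAD peaks each and differed in their p65 content. The region at chr3:5019331-5037637 (18.3 kb) had 6 control p65 peaks, 3 labelled siTEAD4, 7 vehicle and 2 XMU-MP-1 peaks, with a highest TEAD fold of 16.5 and a highest control fold of 16.2. The region at chr3:8524975-8552045 (27.1 kb, highest TEAD fold 20.6) had 1 control and 2 vehicle p65 peaks and none after treatment. The region at chr3:58024435-58038476 (14.0 kb, highest TEAD fold 15.9) had 3 control peaks of up to 7.04 and 3 vehicle peaks of up to 8.39, and again none after treatment.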

How the data were processed

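ChIP-seq of p65 and TEAD in 786-O cells was analysed from the 5 peak lists, called by the authors with MACS2 on hg19 from reads trimmed with fastp and aligned with Bowtie2 2.4.5. These names are from the submitters' processing notes, and the caller's settings and the input behind each list were not given in the sources used here. Read depths are unknown, because the files hold no read counts and none was derived from the solved backgrounds. Each narrowPeak list holds, as deposited by the authors, a fold enrichment (a ratio of summit to local background), −log10 p and −log10 q values and a score per peak, of which the score served only to check the columns. Peaks are given 1-based in hg19.

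Peaks were assigned to arms by summit, and lists were compared by overlap of at least 1 bp. Shares have 95% Wilson intervals, differences of shares Newcombe intervals, densities exact Poisson intervals and ratios of densities exact conditional intervals. Comparisons at equal fold weight 10 equal classes of fold of the whole list. Local background B and pileup P were solved from fold = (P + 1)/(B + 1) and the Poisson p-value, which gave a solution for at least 99.9% of peaks of each list. The functions were tested on simulated data. Named sites are the 5 strongest peaks of each list and class, the sites called in all lists and, picked after their values were seen, close groups of such sites and sites of the centromeric stretch. The members and lists were chosen with earlier results of these data known. Alternatives were −log10 q limits of 5 and 10, summit distance within 200 bp, overlap of 50% of the shorter peak, joining within 10 kb and trimmed arms. The reference tables at hand are of build GRCh38 and were not used. Python 3.11.15, numpy 2.4.6, pandas 2.3.3 and scipy 1.17.1 were used.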

Additional observations from a re-analysis of the deposited data

How the results depend on the processing

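Of 91 alternative values for 23 results, 81 kept the call, that is whether the interval includes equality of the compared classes, and stayed within the reported interval where there was no call (local background ratios within 10%). Differences between arms whose interval includes 0 changed sign in some of these 81. Without the stretch from 75 Mb, a setting chosen for low counts after seeing the data, which had to raise the ratios, the ratio of 3p to 3q density was 1.15 for control p65, with an interval that excludes 1, 1.12 for vehicle p65 and 1.05 for TEAD, where it passed to the other side of 1. For TEAD it was 0.907 without the 5 Mb next to the centromere and 0.900 with summits within 10 kb joined, both with intervals that include 1. With −log10 q limits of 5 and 10 the TEAD ratio was 0.876 and 0.834, both with intervals that exclude 1. Among peaks with a −log10 q of at least 10 the density ratio of XMU-MP-1 p65 was 1.40. Under that limit the differences in TEAD share between the arms were -10.6 points for control p65, -24.4 for p65 labelled siTEAD4, -8.18 for vehicle p65 and -12.0 for XMU-MP-1 p65. The cause was not tested. The higher kept share of 3p peaks with TEAD ranged from 8.43 to 12.8 points in the control list and from 11.9 to 24.8 points in the vehicle list over its alternatives.

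No paired analysis was possible because there was a single library of every condition. Density per length covered by genes, and gene or motif lists, were not run, since no annotation or genome of build hg19 was used here. Read depth is unknown, so a peak that was not called cannot be told apart from one below detection.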
